A study of Mus musculus with 10 samples.

Results

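Cxcr2 and 9 further receptors through which neutrophils and monocytes sense chemoattractants were followed in mouse MLL-AF9 leukemia cells with and without induction of miR-139. The 10 genes, Cxcr2, Cxcr4, Ccr1, Ccr2, Ccrl2, Cx3cr1, Fpr1, Fpr2, C5ar1 and Ltb4r1, were found by their symbols among 52550 genes, and 8 of them had at least 10 counts over the 10 libraries. They were selected with the DOX contrast of MLL-AF9-i139 in view, in which Cxcr2 had a large fold change. Their values in that contrast are therefore given here as a description, without a p. Fpr1, with 3 counts in all 10 libraries together, and Fpr2, with 0, fell under the limit of 10 counts and were not measured, whereas the measured receptor with the fewest counts, Ccr2, had 501.

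All libraries came from C57BL/6 bone marrow cells enriched for hematopoietic stem and progenitor cells (HSPCs) that had been transformed by an MLL-AF9 retrovirus. MLL-AF9-i139 cells also carried a tetR-KRAB repressor and a pCW vector with miR-139, which placed the insert under the control of doxycycline (DOX), and 3 single clones were sequenced with DOX at 5 µg/mL (48 h for clones 1 and 2, 72 h for clone 3) and without DOX (n = 3 per group; the labels give no time for these untreated cultures). MLL-AF9-ieGFP is named for eGFP in place of miR-139, and 1 clone was sequenced at 48 h and at 72 h, with and without DOX at 5 µg/mL (n = 2 per group). Clone 3 and the 72 h treatment cannot be told apart, and the ieGFP libraries are culture times of 1 clone, so that their spread is not that between clones. The medium held SCF, GM-CSF and the interleukins IL-6 and IL-3.

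Chemoattractant receptors are membrane-spanning receptors coupled to G proteins. A ligand such as a chemokine, a complement fragment, a formyl peptide or a leukotriene binds on the outside, Gi proteins pass the signal to PI3Kγ and phospholipase Cβ, Rac proteins drive actin at the leading edge, and GRK kinases, β-arrestins and RGS proteins end the signal. CXCR4 holds immature myeloid cells in the bone marrow through its ligand CXCL12, and CXCR2 draws maturing neutrophils out of it, while CCR2 does so for monocytes. In bulk libraries fewer cells that express a receptor and less RNA per cell cannot be told apart.

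The inserted microRNA gives 2 mature strands, shown here as RefSeq lists them for build GRCm38.p6, 5′ to 3′, with the seed (bases 2 to 8) in capitals. The mature strands lie on the plus strand at chr7:101475382-101475403 (5p) and chr7:101475418-101475439 (3p).
miR-139-5p: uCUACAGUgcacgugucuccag
miR-139-3p: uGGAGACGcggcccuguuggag
The longest annotated 3′ UTR of each receptor was searched for the bases opposite these seeds (ACTGTAG or CTGTAGA for 5p, CGTCTCC or GTCTCCA for 3p, on the transcript strand). A 5p match was present in Cxcr4, Ccrl2 and C5ar1, which are 3 of the 8 measured receptors, beside 21.7% of 13995 tested genes with an annotated 3′ UTR. A 3p match was present in none of the 8, beside 15.9% of those genes. Cxcr4, which has been described as a miR-139-5p target in tumors of other tissues, held 2 matches of 8 bases next to each other. The sites are shown because they set apart the receptors whose transcripts hold letters opposite the seed of the induced microRNA. They were read from GENCODE transcripts (build GRCm38), with the matched bases in capitals.
Cxcr4, chr1:128588554-128588583, minus strand: gtgtaggACTGTAGAACTGTAGAggaagaa
Ccrl2, chr9:111054518-111054547, minus strand: caaggtcattcttggCTGTAGAgttagttc
C5ar1, chr7:16247390-16247419, minus strand: ctcccaagtgtcgtgACTGTAGAcctgtgc
A match is a run of letters and not a shown target site. The levels of these 3 receptors moved in different directions with DOX in MLL-AF9-i139, lower for Cxcr4 and higher for Ccrl2 and C5ar1, as described below, and Cxcr2, with the largest difference, held no match.

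Depth was similar in all libraries, with total counts from 35133308 to 47089725, and 3 counts in a library corresponded to between 0.0637 and 0.0854 CPM (counts scaled to a common library total, normalised with TMM factors in the values below). Mir139 itself had 0 counts in the 10 libraries, so that the counts do not show the induction. Per the study it lies within intron 1 of Pde2a, in the same orientation. Protein-coding genes inside other genes mostly had few counts here, as given for Fpr2 below, so the 0 is no measured absence of its RNA. The libraries carried marks of early myeloid cells, with Elane, a neutrophil elastase gene of promyelocytes, at 913 to 2669 CPM. Kit, the stem cell factor receptor, was at 132 to 172 CPM and Ly6c2, a monocyte marker, at 253 to 431 CPM. Of the monocyte markers, 6 of 10 had at least 10 counts over the 10 libraries. Granulocyte markers differed widely. Mmp8, Mmp9 and Retnlg had 81, 17 and 18 counts in all, but Ngp, S100a9 and S100a8 had 41051, 32175 and 31276. Of the markers of other lineages, 2 of 5 erythroid, 2 of 5 lymphoid, 2 of 4 dendritic, 3 of 4 eosinophil and 4 of 5 mast cell or basophil markers had at least 10 counts over the 10 libraries, while Cd3e and Hba-a1 had 3 counts or fewer. With DOX, clone 3 lay below clones 1 and 2 for Cxcr2, Ccrl2, C5ar1 and Ltb4r1, which are 4 of the 8 measured receptors.

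Cxcr2, the receptor for CXCL1, CXCL2 and related chemokines that neutrophils follow, was low without DOX and many times higher with DOX in MLL-AF9-i139. Without DOX it measured 1.35, 0.889 and 0.913 CPM in clones 1, 2 and 3. With DOX it measured 41.6, 22.8 and 2.67 CPM. All 3 libraries with DOX lay above all 3 without, but clone 3 stayed far below the other two. Within the clones the difference was 4.89, 4.60 and 1.50 on the log2 scale, with a prior count of 2, which is 29.7-fold, 24.3-fold and 2.83-fold. The edgeR estimate over the 3 clones was 4.42 ± 0.86 (log2, SE) and ranged from 3.82 to 4.86 when a clone was left out. In a fit with clone as block it was 4.02 ± 0.60, and 3.25 to 4.85 when a clone was left out. In MLL-AF9-ieGFP, Cxcr2 measured 1.03 and 1.10 CPM without DOX and 1.40 and 1.28 CPM with DOX at 48 h and 72 h, which is the level of the untreated i139 clones. The change there was 0.33 ± 0.90 (log2, SE; edgeR adjusted p = 1).

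**Figure D1:**
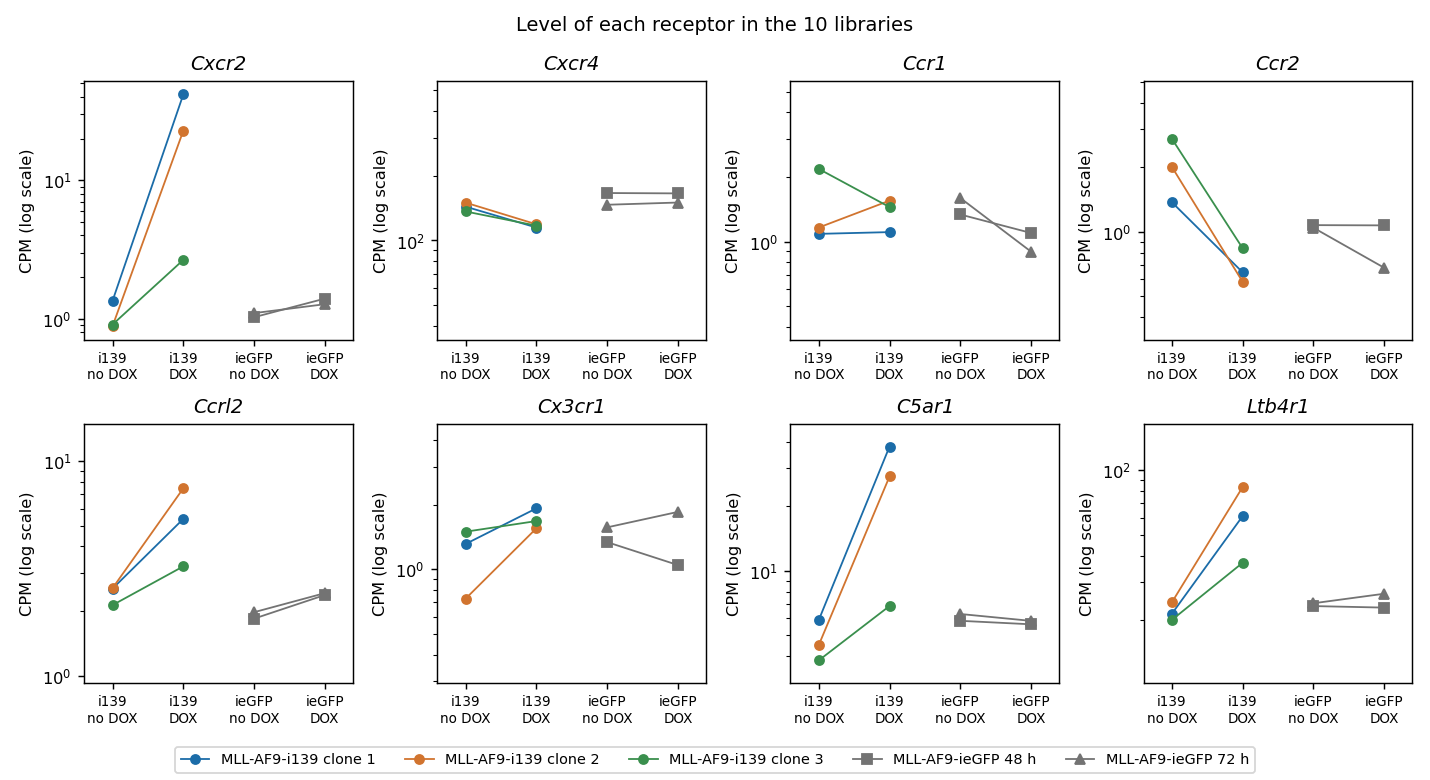
CPM of the 8 measured receptors in each library, on log axes with a range of its own in each panel. Lines join the library without DOX and with DOX of the same MLL-AF9-i139 clone (circles) or the same culture time of MLL-AF9-ieGFP (grey squares, 48 h; grey triangles, 72 h); Cxcr2 goes from 0.889 to 1.35 CPM up to 2.67 to 41.6 CPM in i139 and stays between 1.03 and 1.40 CPM in ieGFP.

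Cxcr4, the CXCL12 receptor, was the most abundant of the receptors and a little lower with DOX in MLL-AF9-i139. It measured 144, 150 and 136 CPM in clones 1, 2 and 3 without DOX and 115, 119 and 117 CPM with DOX. The groups did not overlap, and clone 3 did not stand apart here. The differences within clones were -0.32, -0.33 and -0.22, and the estimate was -0.28 ± 0.09 (log2, SE). In MLL-AF9-ieGFP, Cxcr4 measured 166 and 147 CPM without DOX and 166 and 150 CPM with DOX, a change of 0.01 ± 0.10 (log2, SE; edgeR adjusted p = 1).

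The CC chemokine receptors did not move together. Ccr2, the CCL2 receptor of inflammatory monocytes, measured 1.37, 2.01 and 2.71 CPM in clones 1, 2 and 3 without DOX. With DOX it measured 0.647, 0.585 and 0.838 CPM. It was lower with DOX in each clone without overlap of the groups, by -1.03, -1.70 and -1.64 (log2), and clone 3 moved as far as clone 2. The estimate was -1.54 ± 0.32 (log2, SE). The ieGFP clone started from a lower level, 1.07 and 1.04 CPM without DOX at 48 h and 72 h, and measured 1.07 and 0.680 CPM with DOX. Ccr1, a receptor for CCL3 and CCL5 on neutrophils and monocytes, measured 1.09, 1.16 and 2.18 CPM without DOX and 1.11, 1.55 and 1.45 CPM with DOX. Its groups overlapped and its clones went in both directions, from -0.57 in clone 3 to 0.40 in clone 2 (log2; estimate -0.095 ± 0.33, SE). In MLL-AF9-ieGFP, Ccr1 measured 1.34 and 1.60 CPM without DOX and 1.10 and 0.898 CPM with DOX, a change of -0.55 ± 0.37 (log2, SE; edgeR unadjusted p = 0.168, adjusted p = 1).

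Ccrl2 encodes an atypical receptor that binds the chemoattractant chemerin and presents it to other cells without signalling itself. It measured 2.54, 2.55 and 2.13 CPM in clones 1, 2 and 3 without DOX and 5.37, 7.45 and 3.23 CPM with DOX. All 3 libraries with DOX were above those without, again with clone 3 the lowest, and the differences within clones were 1.06, 1.53 and 0.59 (log2; estimate 1.16 ± 0.31, SE). In MLL-AF9-ieGFP it measured 1.84 and 1.97 CPM without DOX and 2.37 and 2.42 CPM with DOX, a change of 0.33 ± 0.34 (log2, SE; edgeR adjusted p = 1).

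Cx3cr1, the fractalkine receptor of patrolling monocytes and macrophages, measured 1.31, 0.729 and 1.50 CPM in clones 1, 2 and 3 without DOX and 1.92, 1.55 and 1.68 CPM with DOX. The groups did not overlap, but the highest untreated and the lowest treated library, 1.50 and 1.55 CPM, were close to each other. The estimate was 0.56 ± 0.30 (log2, SE). In MLL-AF9-ieGFP, Cx3cr1 measured 1.34 and 1.57 CPM without DOX and 1.05 and 1.85 CPM with DOX, lower at 48 h and higher at 72 h. Its gene body shares 57.4% of its length with other genes, among them Gorasp1 and Wdr48, and 1.73% of its exon length is shared with genes on the opposite strand.

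Fpr1 and Fpr2 encode the receptors for formyl peptides that bacteria and mitochondria release. Fpr1 had 1 count in 3 of the 10 libraries and 0 counts in the other 7. Fpr2 had 0 counts in every library, which allows a level of up to 0.0637 to 0.0854 CPM, a limit that covers counting error only. Of the Fpr2 gene body, 99.5% lies inside other annotated genes, Fpr3 on the same strand among them. Protein-coding genes with at least 95% of their body inside other genes had under 10 counts in 92.5% of 1517 cases, against 31.6% of 16238 genes with less than 5%, so that the 0 of Fpr2 says little about its RNA. The 8 receptors other than Fpr2 and Cx3cr1 share none of their body.

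C5ar1, the receptor for the complement fragment C5a, differed with DOX in MLL-AF9-i139 in the same order of clones as Cxcr2. It measured 5.90, 4.51 and 3.83 CPM in clones 1, 2 and 3 without DOX. With DOX it measured 37.9, 27.5 and 6.86 CPM. The groups did not overlap, and clone 3 lay just above the highest untreated i139 library. The differences within clones were 2.67, 2.59 and 0.83 (log2), that is 6.38-fold, 6.04-fold and 1.78-fold. The estimate was 2.36 ± 0.54 (log2, SE), and 2.12 ± 0.35 with clone as block. In MLL-AF9-ieGFP, C5ar1 measured 5.85 and 6.30 CPM without DOX and 5.64 and 5.85 CPM with DOX, a change of -0.080 ± 0.56 (log2, SE; edgeR adjusted p = 1).

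Ltb4r1, the high-affinity receptor for leukotriene B4, was the second most abundant receptor. It measured 21.4, 24.2 and 20.0 CPM in clones 1, 2 and 3 without DOX. With DOX it measured 61.0, 83.4 and 37.0 CPM. All libraries with DOX were above all without, and clone 2 showed the largest difference, 3.44-fold, against 2.85-fold in clone 1 and 1.84-fold in clone 3. The estimate was 1.48 ± 0.27 (log2, SE). In MLL-AF9-ieGFP, Ltb4r1 measured 23.3 and 24.0 CPM without DOX and 22.9 and 26.5 CPM with DOX, a change of 0.07 ± 0.28 (log2, SE; edgeR adjusted p = 1).

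**Figure D2:**
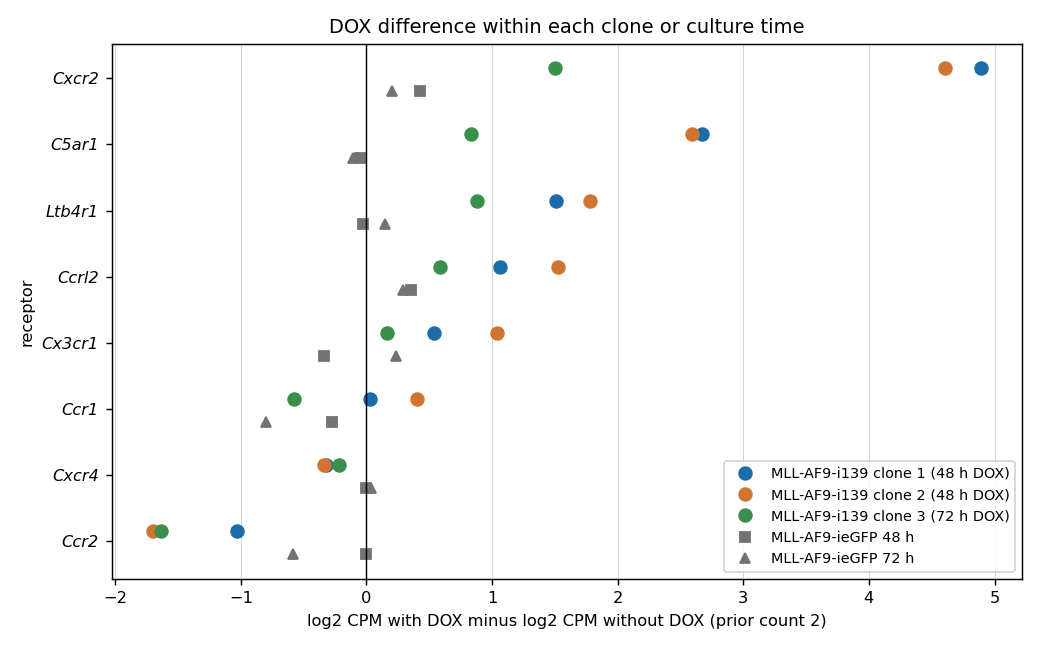
Difference in log2 CPM (prior count 2) between the library with DOX and the library without for each MLL-AF9-i139 clone (coloured circles) and each culture time of MLL-AF9-ieGFP (grey symbols), receptors ordered by their estimate in i139. Clones 1 and 2 lie far to the right for Cxcr2 (4.89 and 4.60) and C5ar1 (2.67 and 2.59), clone 3 lies closer to 0 (1.50 and 0.83), and Ccr2 lies left of 0 in the 3 clones.

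Seen together, DOX libraries of MLL-AF9-i139 lay above the untreated ones for 5 of the 8 receptors, Cxcr2, Ccrl2, Cx3cr1, C5ar1 and Ltb4r1, and below them for 2, Cxcr4 and Ccr2. Over all genes tested, 12% lay above and 12.8% below in this way. With edgeR's quasi-likelihood test over 19223 genes, 0 of the 8 receptors and 0.0624% of all genes had an adjusted p under 0.05 (12 genes; 3959 at an unadjusted p under 0.05). A fit with clone as block called 5 of the 8, Cxcr2, Ccrl2, C5ar1 and Ltb4r1 higher and Ccr2 lower, beside 12.4% of all genes. Since the receptors were selected on this contrast, these counts describe them and nothing is read from them. The median estimate of the 8 was 0.86 (log2), beside 0.01 over all genes tested.

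MLL-AF9-ieGFP was not used to choose the receptors and shows DOX and eGFP without miR-139. There, 0 of the 8 receptors passed in edgeR's test over 20269 genes, as did 0% of all genes (0 genes; 259 at an unadjusted p under 0.05, and 1 gene with DESeq2). The estimates of the 8 ran from -0.55 for Ccr1 to 0.33 for Cxcr2 and Ccrl2, with a median of 0.005 beside 0.007 over all genes (log2). Their SEs, between 0.10 for Cxcr4 and 0.90 for Cxcr2, come from a spread shared over all 4 groups, and for Cxcr2 the difference of 1.50 seen in i139 clone 3 lay within 2 SEs of the ieGFP estimate. The difference between the i139 estimate and the ieGFP estimate was 4.07 ± 1.16 for Cxcr2, 2.42 ± 0.73 for C5ar1, 1.40 ± 0.36 for Ltb4r1, 0.82 ± 0.44 for Ccrl2, 0.55 ± 0.48 for Cx3cr1, 0.44 ± 0.48 for Ccr1, -0.31 ± 0.13 for Cxcr4 and -1.28 ± 0.49 for Ccr2 (log2, SE). These differences contain the contrast the receptors were selected on and were given no test.

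Without DOX, the i139 clones and the ieGFP clone differed by a ratio that depended on the receptor. Over the 5 untreated libraries the highest level was 1.21-fold the lowest for Ltb4r1, 1.22-fold for Cxcr4, 1.52-fold for Cxcr2, 1.64-fold for C5ar1 and 2.60-fold for Ccr2. None of the 8 passed in edgeR's test of untreated i139 against untreated ieGFP, as did 0.0444% of all genes (9 of 20269). Ccr2 came closest, higher in i139 by 0.93 ± 0.34 (log2, SE; edgeR unadjusted p = 0.0189, adjusted p = 1), with all 3 i139 clones above both ieGFP libraries. With 1 ieGFP clone, construct and clone cannot be told apart.

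Levels were compared between receptors only per kb of merged exon length. In the untreated i139 clones Cxcr4 led with 79.3 ± 3.8 CPM per kb (SD, n = 3), followed by Ltb4r1 with 15.7 ± 1.5, C5ar1 with 1.85 ± 0.41 and Ccrl2 with 0.927 ± 0.093. Each of these lay outside the range of the next. Ccr1 (0.521 ± 0.22), Cxcr2 (0.345 ± 0.086), Ccr2 (0.300 ± 0.099) and Cx3cr1 (0.262 ± 0.089) followed, and each overlapped its neighbour. With DOX the order in i139 was Cxcr4 (64.7 ± 1.1), Ltb4r1 (43.4 ± 17), C5ar1 (9.38 ± 6.2), Cxcr2 (7.33 ± 6.4), Ccrl2 (2.06 ± 0.81), Ccr1 (0.483 ± 0.082), Cx3cr1 (0.381 ± 0.042) and Ccr2 (0.102 ± 0.020). Cxcr2 thus had rank 6 without DOX and rank 4 with it, where its range overlapped those of C5ar1 and Ccrl2. Of the summed level of the 8 receptors, Cxcr4 made up 79.9%, 79.6% and 80.3% in the untreated clones 1, 2 and 3. After DOX it made up 45.8%, 44.6% and 66.7% of it. In the ieGFP libraries its share was between 78.0% and 81.5%, with and without DOX.

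**Figure D3:**
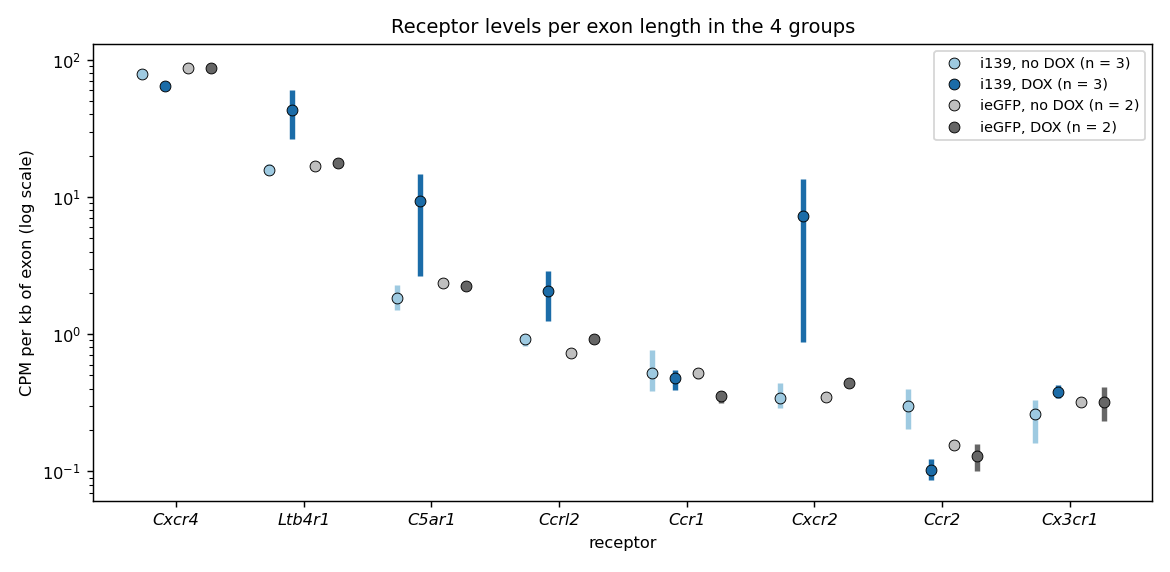
Level of the 8 receptors in CPM per kb of merged exon length (log axis) in the 4 groups, receptors ordered by the untreated i139 mean. Points are group means and bars run from the lowest to the highest library (n = 3 for i139, n = 2 for ieGFP); Cxcr4 is the highest in each group, and the bar of Cxcr2 with DOX in i139 spans 0.875 to 13.6 CPM per kb.

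The 3 receptors with the largest positive estimates are shown here with their promoters, since each of them was higher with DOX in the 3 clones. Each sequence runs from 250 bases before to 50 bases after the RefSeq start site (build GRCm38.p6), 5′ to 3′ on the gene's strand. Capitals mark matches, on either strand, to letters typical of myeloid and general promoter motifs, namely GAGGAA (PU.1 type), TTNNGNAA (C/EBP type), TGANTCA (AP-1 type), then the GC box GGGCGG and the TATA box TATAAA.
Cxcr2, chr1:74153744-74154043, plus strand: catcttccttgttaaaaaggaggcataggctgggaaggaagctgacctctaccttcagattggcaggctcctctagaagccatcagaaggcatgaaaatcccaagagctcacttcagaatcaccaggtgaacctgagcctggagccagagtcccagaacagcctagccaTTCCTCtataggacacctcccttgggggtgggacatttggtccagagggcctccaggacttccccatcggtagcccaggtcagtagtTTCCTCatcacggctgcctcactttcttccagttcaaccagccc
C5ar1, chr7:16259289-16259588, minus strand: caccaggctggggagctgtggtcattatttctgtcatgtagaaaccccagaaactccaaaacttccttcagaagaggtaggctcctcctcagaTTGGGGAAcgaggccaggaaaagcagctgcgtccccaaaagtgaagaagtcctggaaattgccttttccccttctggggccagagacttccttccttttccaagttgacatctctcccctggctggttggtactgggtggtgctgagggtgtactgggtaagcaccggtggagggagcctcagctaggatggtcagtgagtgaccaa
Ltb4r1, chr14:55765712-55766011, plus strand: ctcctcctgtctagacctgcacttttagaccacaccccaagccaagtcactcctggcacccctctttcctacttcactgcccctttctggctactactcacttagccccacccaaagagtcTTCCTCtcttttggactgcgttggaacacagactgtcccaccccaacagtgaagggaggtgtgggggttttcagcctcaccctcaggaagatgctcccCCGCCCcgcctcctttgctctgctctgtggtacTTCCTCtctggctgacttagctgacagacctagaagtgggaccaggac
The Cxcr2 window held 2 PU.1-type matches, at -81 and 6 bases from the start site, and none of the other motifs. The Ltb4r1 window also held 2 PU.1-type matches, at -129 and 2 bases, and a GC box at -31. The C5ar1 window held no PU.1-type match and 1 C/EBP-type match at -157. Of 32851 promoters of this length, 28.3% held the PU.1-type letters, 40.7% the C/EBP-type, 35.7% the GC box, 13.6% the TATA box and 7.81% the AP-1 letters. The matches are letters in a window and were not tested as binding sites.

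To see which other genes had the pattern of Cxcr2, genes with a mean of at least 1 CPM were ordered by the Pearson correlation of their log2 CPM with Cxcr2 over the 10 libraries. Of the 10 closest, 9 are given here: Selenop (selenium transport; r = 0.995), Tpcn2 (an endolysosomal channel), Stk17b, Cdkn1a (the cell cycle inhibitor p21), Mgst1, Src (a tyrosine kinase), Tnfrsf23, Zc3h12a (an RNase that degrades inflammatory mRNAs) and Abr (a regulator of Rac; r = 0.988), out of 11875 genes. These 9 had their highest levels in clones 1 and 2 with DOX and much smaller differences in clone 3, so that r rests mostly on these 2 libraries. Src came nearest in size, with 4.16, 4.10 and 1.03 (log2) in clones 1, 2 and 3, and Abr had 0.91, 1.03 and 0.32. C5ar1 ranked 14 in this order (r = 0.986), Ltb4r1 422 (r = 0.946) and Ccrl2 567 (r = 0.935). Cx3cr1 (r = 0.47), Ccr1 (r = -0.061), Ccr2 (r = -0.67) and Cxcr4 (r = -0.77) did not share the pattern. The r values describe these 10 libraries, which come from 4 clones.

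**Figure D4:**
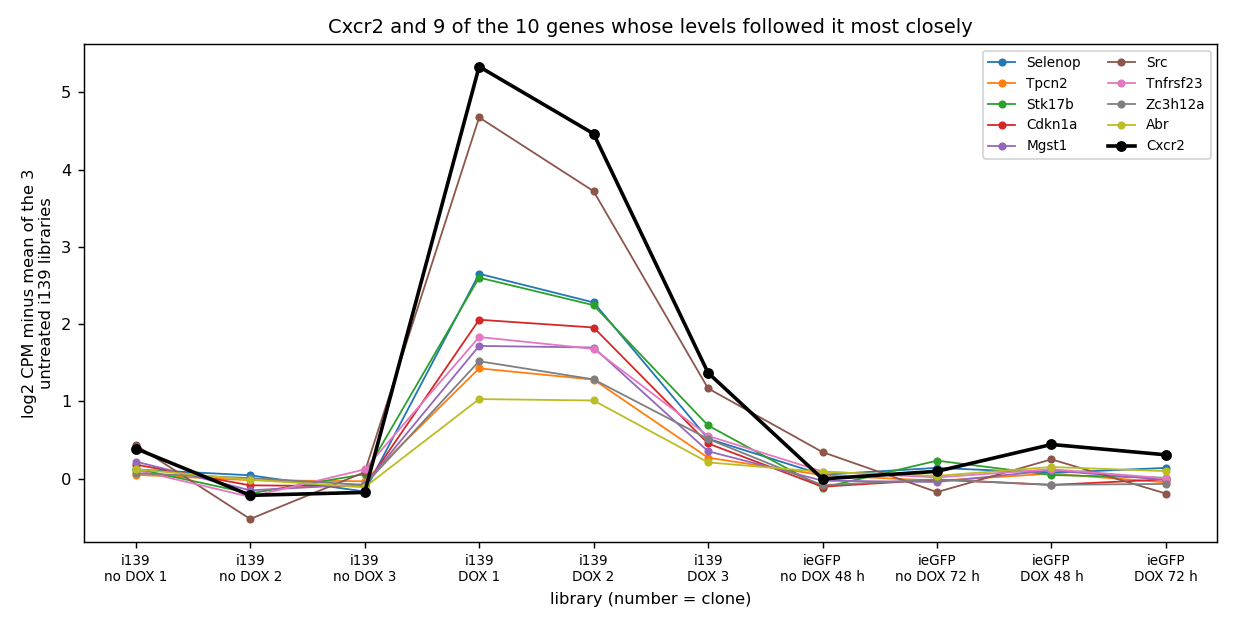
Log2 CPM of Cxcr2 (black) and of 9 of the 10 genes with the highest correlation to it (colours) in the 10 libraries, each minus its mean in the 3 untreated i139 libraries. All 10 lines peak in clones 1 and 2 with DOX and are lower in clone 3, and Src follows Cxcr2 most closely in size.

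Among 33 other chemoattractant receptors, 16 had enough counts to be tested in MLL-AF9-i139. Of these 33 receptors, and of the 28 ligands and 23 signalling genes below, 3, 4 and 1 lie at least 95% inside other genes. A low count of such a gene says little about its RNA, as given for Fpr2. None was called without the clone block (0.0624% of all genes), and 3 rose and 1 fell with it (12.4% of all genes). The 12.4%, here and below, holds calls in either direction, 1356 genes higher and 1025 lower. Their median estimate was 0.22 (log2), beside 0.01 over all genes. The lists here and below were chosen with earlier results of these data known. Their genes are named by size of change and adjusted p. The p-values given for them in MLL-AF9-i139 thus describe these genes and are no independent support. Ptafr, the receptor for platelet-activating factor, measured 4.59, 3.47 and 5.32 CPM in clones 1, 2 and 3 without DOX and 23.7, 20.4 and 10.4 CPM with DOX (1.99 ± 0.30, log2 and SE with the block; edgeR adjusted p = 0.0220). C5ar2, the second receptor for C5a, which does not couple to G proteins, rose by 1.32 ± 0.25 with the block (adjusted p = 0.0282), and S1pr4, a sphingosine-1-phosphate receptor of blood cells, by 1.35 ± 0.16 (adjusted p = 0.0148). Ccr4, known from T helper cells, fell by 1.13 ± 0.27 (adjusted p = 0.0410), from 4.23 to 7.77 CPM without DOX to 2.29 to 3.35 CPM with it. Both C5a receptors were thus higher with DOX in the 3 clones.

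Of 28 ligands and enzymes that make ligands, 16 were tested, of which 0 were called without the block (0.0624% of all genes) and 4 rose and 0 fell with it (12.4% of all genes). Their median estimate was 0.34 (log2), beside 0.01 over all genes. Ccl4, a chemokine for monocytes, rose by 2.33 ± 0.45 (log2, SE, block; edgeR adjusted p = 0.0287) from 0.123 to 0.177 CPM without DOX to 0.330 to 1.13 CPM with it. Saa3, an acute phase protein that attracts phagocytes, rose by 2.14 ± 0.46 (adjusted p = 0.0338) from 0.0684 to 0.144 CPM without DOX to 0.152 to 0.647 CPM with it. In MLL-AF9-ieGFP, Saa3 measured 0.132 and 0.145 CPM without DOX and 0.485 and 0.190 CPM with DOX at 48 h and 72 h (1.28 ± 0.73, log2 and SE, edgeR adjusted p = 1), and the difference between the constructs was 0.86 (edgeR adjusted p = 0.788). Alox5ap, which hands arachidonic acid to 5-lipoxygenase on the way to leukotriene B4, rose by 1.39 ± 0.27 (adjusted p = 0.0289) and measured 159, 152 and 46.3 CPM in clones 1, 2 and 3 with DOX against 34.0 to 47.2 CPM without. The enzyme that completes leukotriene B4, Lta4h, had an estimate of 0.24 ± 0.18 and Alox5 of 0.014 ± 0.26 (log2, SE, no block). With the block Lta4h had 0.23 ± 0.07 (edgeR adjusted p = 0.0755), higher with DOX in each clone, and Alox5 had 0.017 ± 0.24. C3, the source of C3a, rose by 0.46 ± 0.12 (adjusted p = 0.0471).

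Signalling genes below the receptors gave 11 rises and 0 falls among 22 tested of 23 with the block (12.4% of all genes), and 0 calls without it (0.0624% of all genes). Their median estimate was 0.43 (log2), beside 0.01 over all genes. Gngt2, a G protein γ subunit, rose by 1.86 ± 0.31, Gna15, a myeloid Gα subunit, by 1.29 ± 0.14, and Pik3r5 and Pik3r6, the regulatory subunits of PI3Kγ, by 1.21 ± 0.26 and 1.11 ± 0.28 (log2, SE, block; edgeR adjusted p from 0.0126 to 0.0487). Gna15 measured 22.0, 19.5 and 17.8 CPM without DOX and 61.4, 54.6 and 32.4 CPM with DOX in clones 1, 2 and 3. In clone 3 Pik3r5 and Pik3r6 differed by 0.29 and 0.07 only. Of the Gngt2 gene body, 61.8% lies inside other genes.

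Of 11 genes that end the signal, 4 rose and 0 fell with the block (12.4% of all genes), and 0 were called without it (0.0624% of all genes). The median estimate was 0.52 (log2), beside 0.01 over all genes. Rgs1, a brake on chemokine receptor signalling, measured 0.287, 0.0228 and 0.0253 CPM without DOX and 4.41, 0.814 and 0.229 CPM with DOX (4.03 ± 0.34, log2 and SE with the block; edgeR adjusted p = 0.00915). The untreated libraries of clones 2 and 3 were under the level of 3 counts, so that the size of the rise is uncertain. In MLL-AF9-ieGFP, Rgs1 measured 0.0438 and 0 CPM without DOX and 0.128 and 0.109 CPM with DOX (2.13 ± 2.26, log2 and SE, edgeR adjusted p = 1), and the difference between the constructs was 1.80 (edgeR adjusted p = 0.877). Arrb2, β-arrestin 2, rose by 0.88 ± 0.11 (adjusted p = 0.0152), Grk2, which phosphorylates active receptors, by 0.55 ± 0.11 (adjusted p = 0.0289), and Rgs19 by 0.50 ± 0.13 (adjusted p = 0.0453). In MLL-AF9-ieGFP 0 genes of the 4 lists were called, which does not test a difference between the constructs. In edgeR's test of that difference with the block, S1pr4 passed (adjusted p = 0.0428). The other named genes of the lists did not pass, with adjusted p from 0.0511 for Gna15 to 0.605 for Saa3. Without the block, edgeR's adjusted p was 0.527 or more for all of the named genes.

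**Figure D5:**
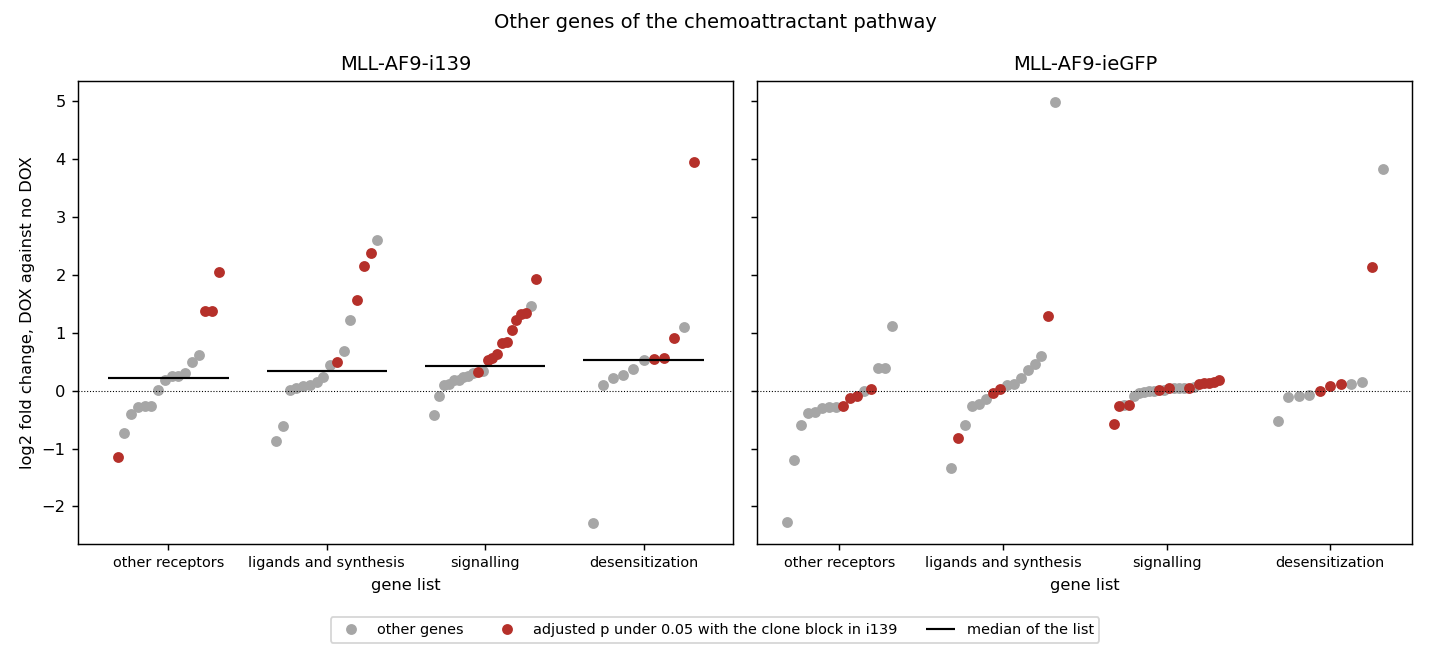
Log2 fold change with DOX of the tested genes of 4 pathway lists in MLL-AF9-i139 (left, no block) and MLL-AF9-ieGFP (right), each point a gene and black lines the list medians in i139 (0.22, 0.34, 0.43 and 0.52). Red points are genes with an edgeR adjusted p under 0.05 in i139 with the clone block, 4, 4, 11 and 4 genes; in the right panel most of the red points lie near 0.

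Of 13 markers of maturing granulocytes, 12 had at least 10 counts over the 10 libraries. Mmp9, Retnlg and Itgam had too few counts in the MLL-AF9-i139 libraries to be tested there. Itgam had 6 counts in all, and 99.9% of its body lies inside other genes. Of the markers tested, 4 rose and 0 fell with the block (12.4% of all genes) and 0 were called without it (0.0624% of all genes). The 4 were Ngp, Cd177, Csf3r and Lcn2. The summed level of the 13 markers was 187 to 269 CPM in the untreated and 291 to 441 CPM in the DOX libraries of MLL-AF9-i139, and 340 to 471 CPM in MLL-AF9-ieGFP with and without DOX. Csf3r, the G-CSF receptor, measured 23.8 to 36.7 CPM without DOX and 64.7 to 77.5 CPM with it, and Lcn2, a secondary granule protein, measured 5.78 to 8.44 CPM and 11.5 to 34.0 CPM. The summed level of 10 monocyte markers was 360 to 446 CPM without and 284 to 434 CPM with DOX. Most of this sum was Ly6c2, at 343 to 431 CPM without and 253 to 421 CPM with DOX. Without the block, estimates were 1.36 for Csf1r, 1.71 for Adgre1, 1.29 for Fcgr1 and 1.14 for Cd14 (log2). They were -0.29 for Ly6c2 and -0.20 for F13a1. The list median was 1.22, beside 0.46 for the granulocyte markers. Irf8 and Ms4a6c had 0 counts, with 100% and 93.8% of their bodies inside other genes. Csf1r, the M-CSF receptor, rose with the block, while Adgre1, the F4/80 antigen, measured 9.19 and 3.66 CPM in clones 1 and 2 with DOX and 0.79 to 1.97 CPM in the other i139 libraries. Of 5 promyelocyte markers, Mpo and Ctsg rose and Ms4a3 fell with the block, and of 6 progenitor markers Cd34 rose and Hoxa9 fell. Cd34 had only 37 counts over the 10 libraries. In MLL-AF9-i139 it measured 0 to 0.0228 CPM without DOX and 0.0762 to 0.418 CPM with it, so that the size of its rise is uncertain. Of the basophil and mast cell markers Mcpt8 rose, and 0 of the erythroid, eosinophil, lymphoid and dendritic markers were called. Without the block 0 markers of any of these lists were called. The part of these markers in the receptor levels was not tested.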

How the data were processed

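RNA of the 10 libraries was sequenced after ribosomal RNA depletion. Per the study's methods and the submitters' processing notes, the authors mapped reads to GRCm38 with STAR 2.5.3e, counted them per gene with featureCounts 1.6.0 on GENCODE M15 and deposited raw read counts without a filter. The 2 deposited tables had 0 differing values, and 14 columns of other samples were not used. Groups came from the sample labels.

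Genes with at least 10 counts over the fitted libraries were tested with edgeR 4.0.16 (R 4.3.3; TMM, quasi-likelihood test, Benjamini-Hochberg adjustment, threshold 0.05). The DOX effect in MLL-AF9-i139 was fitted on its 6 libraries without a block, and all other contrasts on the 10 libraries in 4 groups. The clone block, DESeq2 1.42.0, RLE factors, 2 other count filters, other library sets and left-out clones were alternatives. CPM used TMM factors. Values within a clone are log2 CPM differences with a prior count of 2. Total counts per library were between 35133308 and 47089725, and limits from counts cover counting error only.

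Libraries of the same clone number share a clone, by the labels, and deviated together (correlation of deviations 0.288 to 0.414, against -0.315 to -0.044 between clones). Calls that the block changes are therefore given with it. Estimates of the receptors are without the block and those of the named list genes with it, unless stated. Deviations were taken from group means, which pushes the values between clones down when those within clones are high. The ranges are thus no independent comparison. Nothing says that the libraries are separate cultures beyond this, and p-values measure the spread between these libraries.

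Named genes were all 10 receptors; from each pathway list up to 4 genes with the largest change, the same sign in 3 clones and an adjusted p under 0.05 with or without the block; and the 10 genes closest to Cxcr2, of which 1 is not reported here. Marker genes and Lta4h, Alox5, Mir139 were named after their values were seen. The receptors and lists were chosen with earlier results of these data known. Positions, exon lengths and 3′ UTRs came from GENCODE M21 on GRCm38, microRNA and promoter sequences from RefSeq (GRCm38.p6), in which all 10 receptors matched. Scripts were tested on simulated data.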

Additional observations from a re-analysis of the deposited data

Results flagged for a closer look

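C5ar1 was flagged because the sign of its DOX difference was not the same in the 2 constructs. It was higher with DOX in each of the 3 MLL-AF9-i139 clones (2.67, 2.59 and 0.83 on the log2 scale) and lower with DOX at both times in MLL-AF9-ieGFP (-0.054 and -0.11). The difference between the estimates was 2.42 ± 0.73 (log2, SE). It was not tested, since the i139 contrast was in view when the receptors were chosen, and the ieGFP values are small. The ieGFP estimate, -0.080 ± 0.56 (log2, SE), was smaller than its SE, so that it sets no direction.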

How the results depend on the processing

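The number of genes called for DOX in MLL-AF9-i139, 12 without a block, was 1556 with DESeq2, 8 with RLE factors, 562 without a count filter, 6 with the stricter filter, 1234 with all 10 libraries fitted and 2381 with the replicate block, and leaving out a clone gave 0 to 3981 without the block and 324, 580 and 7974 without clone 1, 2 and 3 with it (the latter chosen after seeing the data). The highest values, 3981 and 7974, were those without clone 3. For DOX in MLL-AF9-ieGFP, 0 genes became 1 with DESeq2 and 1 without a filter. For the difference of the DOX effects, 1 gene became 82 with DESeq2, 71 without a filter, 0 with the stricter filter, 38 with the replicate block and 0 to 2011 with a replicate left out. For the untreated clones, 9 genes became 45 with DESeq2, 37 without a filter and 0 to 30 with a replicate left out. Each list had 0 calls without a block. For other receptors, ligands, signalling and desensitization, in this order, calls were 4, 1, 6 and 3 with DESeq2, 3, 2, 4 and 2 without a filter, 4, 2, 6 and 2 with all libraries fitted, and 4, 4, 11 and 4 with the replicate block. With a clone left out they were 0 to 4, 0 to 5, 0 to 13 and 0 to 6 without the block, and 2 to 6, 1 to 8, 2 to 20 and 2 to 9 with it, the highest without clone 3. Of the 273 further values under alternatives, those of single receptors and the overlap of the genes closest to Cxcr2, none with a test crossed the threshold. Leaving out a clone took the i139 estimate of Ccr1 from -0.34 to 0.25, and those of the other 7 receptors kept their sign. The paired fit changed no call of a receptor in MLL-AF9-ieGFP.

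The main limits are 3 clones with 2 treatment times, 1 control clone, and low counts. Cxcr2, Ccr1, Ccr2 and Cx3cr1 rest on 32 to 107 counts in each untreated i139 library, so small differences in them were not detectable at this depth. Of the 10 genes closest to Cxcr2, 9 stayed with a mean of at least 5 CPM. The cause of the differences between settings was not tested.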
